A study of Mus musculus with 2 samples.

Results

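FGF2 cluster 8 is a group of stromal cells in organoids grown with the fibroblast growth factor FGF2, led by Mgp, Pla1a and Ccl8. Its members here are the 185 genes that the authors' deposited table of the FGF2 library lists for cluster 8, out of 3058 genes listed for any of the 17 clusters of that library and 5154 listed for either library. The series compares single cells of 1 library without and 1 with FGF2, from the stroma of organoids, which are small aggregates grown in culture, made from salivary glands of CD-1 mice, an outbred stock. Both libraries carry the same age label, embryonic day 16 with 7 added, and the meaning of the added 7 is not stated in the sources. The control group is organoids without FGF2, the other group organoids with FGF2, and no dose or time of FGF2 is given. The labels state 5023 captured control cells and 10107 captured FGF2 cells.

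Stromal cells of a gland lay down collagens, elastic fibres and proteoglycans, trim that matrix with proteases and their inhibitors, and release chemokines and growth factors to epithelium and immune cells. Mgp encodes matrix Gla protein, a secreted vitamin K-dependent protein that blocks calcification and binds bone morphogenetic proteins. Pla1a encodes a secreted phospholipase that acts on phosphatidylserine, and Ccl8 a chemokine of the monocyte chemoattractant family.

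All values are from single libraries. With 1 library per group there is no replicate check and nothing was tested. The cluster was formed from the genes described here, so its contrast with the other cells is a description. Shares are percentages of cells with a value above 0, and ratios are the average of a gene in the cluster over its average in all other cells of the same library, each with an offset of 1 added before division, so the ratio of a low gene is understated. Both quantities are taken from the authors' deposited table unless a sentence calls a share recovered. The natural base of the log ratio was inferred and the offset assumed, since the header states neither. A recovered share was computed from the listed shares of several clusters. The counts per cell and the number of cells per cluster are unknown, so no interval is given.

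Cluster 8 held 5.55% of the FGF2 cells by the recovered parts. Its 185 genes are 0.922% of 20056 genes. That number is the median ratio of the authors' adjusted p-values to their p-values, and how many genes were tested is not stated. Of the 185 genes, 111 were higher and 74 lower in the cluster, which is 0.553% and 0.369% of the 20056. Higher by at least 1.5-fold were 43 genes, and 24 were lower by as much, 0.214% and 0.12% of the 20056. These percentages describe the selection of the members, since the listing itself chose them. The weakest listed genes had ratios of 1.28 upward and 0.777 downward, and genes closer to even are not listed. Among the higher genes the median share was 83.3% within cluster 8 and 57.5% outside it. The lower genes had medians of 57.1% and 64.2%, so they were mostly present in the cluster at a lower level. Only 3 genes had a share at least 20 percentage points smaller in the cluster, against 52 with a share at least 20 points larger. For 9 genes listed as lower, the share was larger in cluster 8 than elsewhere, and for no gene listed as higher was it smaller.

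**Figure D1:**
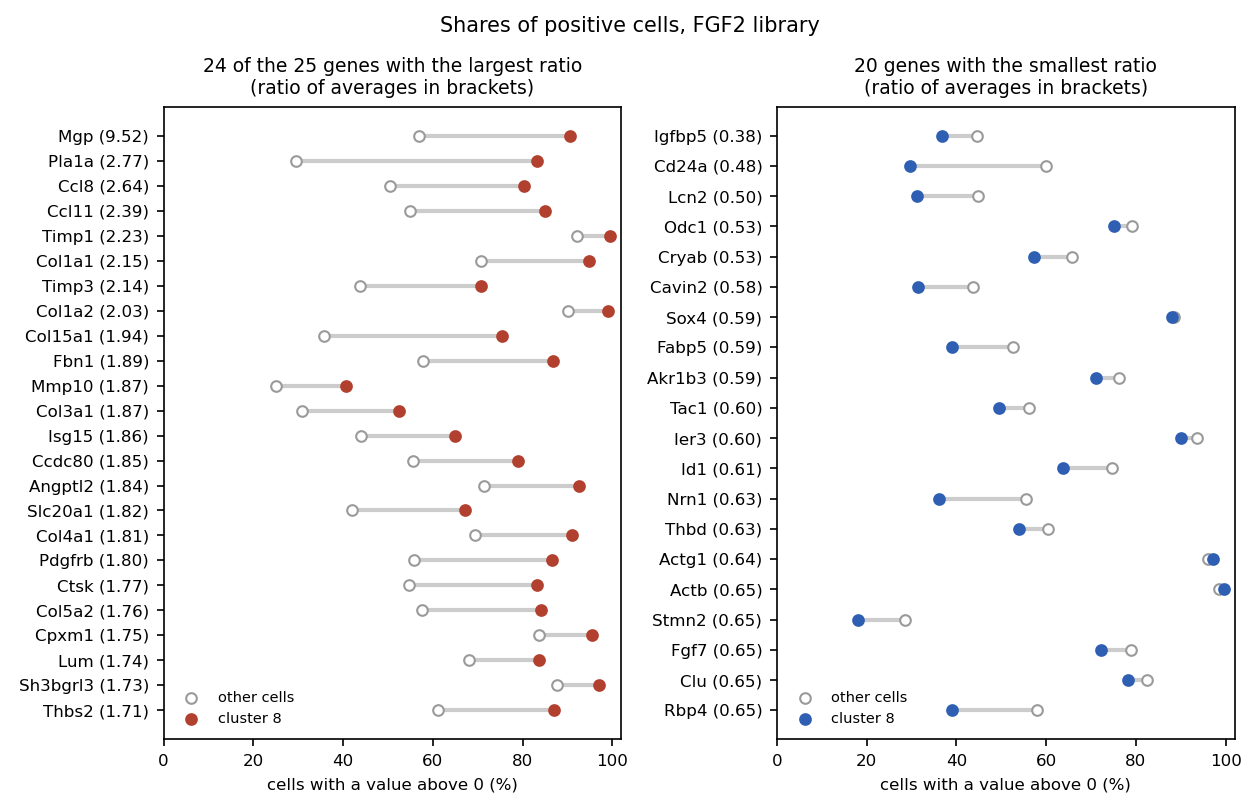
Percentage of cells with a value above 0 in FGF2 cluster 8 (filled) and in all other FGF2 cells (open) for 24 of the 25 genes with the largest ratio of averages (left) and the 20 with the smallest (right), with the ratio in brackets. Pla1a goes from 29.6% to 83.3%, while Actb, 1.55-fold lower, is at 99.6% and 98.5%.

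The label of a stromal cluster was checked on marker lists. Over the whole FGF2 table, 185 of 3058 genes were listed for cluster 8, 111 higher and 74 lower. Each list count here and below is to be set beside that. Of 13 fibroblast symbols 12 were in the FGF2 table, and 7 of them were listed for cluster 8, all higher: Col1a1, Col1a2, Col3a1, Pdgfrb, Lum, Fbln2 and Thy1. Pdgfra, a receptor tyrosine kinase typical of fibroblasts, was not listed for cluster 8. Its recovered mean share over the 12 clusters that do not list it, cluster 8 among them, was 88.3%. None of the 12 epithelial, 5 macrophage, 10 mast cell, 7 Schwann and glial, 12 proliferating or 6 smooth muscle and myofibroblast markers in the table was listed for cluster 8. The recovered mean shares over the clusters not listing them were 0.6% to 11.5% for the epithelial markers, 0.2% to 1.67% for the macrophage markers and at most 7.3% for the mast cell markers. They were higher for some markers of the other lists, up to 44.9% for the Schwann and glial markers (S100b), 1.7% to 28.6% for the proliferating and 4.04% to 89.9% for the smooth muscle and myofibroblast markers. Of the 4 pericyte markers in the table, Cspg4, a proteoglycan of pericytes and other mesenchymal cells, was listed (56.7% against 28.9%, ratio 1.34). Of the 6 adventitial fibroblast markers, Mfap5 was higher (55.2% against 41.5%) and Cd34 (19.5% against 36.6%) and Anxa3 (58.8% against 59.8%) were lower. Of the 2 osteoblast markers Spp1 was higher (ratio 1.68), at 100% both inside and outside the cluster. Of the 4 neutrophil markers Lcn2 was lower. Neither the 3 chondrocyte markers nor the 1 endothelial marker in the table were listed for cluster 8. None of the 11 mitochondrially encoded genes in the table was listed for cluster 8.

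Mgp stood apart from all other members. In the authors' deposited table it was found in 90.6% of the cluster 8 cells and 56.8% of the other FGF2 cells, with a ratio of averages of 9.52, while the next ratio was 2.77. The gap was therefore mainly one of level. Mgp was listed higher in 1 other FGF2 cluster, cluster 7 (76.2% of its cells, ratio 2.05), and lower in 6, such as cluster 5 (38.3%, 4.39-fold lower) and cluster 1 (52.5%, 2.77-fold lower). It was also found in 29.7% of the cells of cluster 15, led by mast cell proteases, at unknown depth, and the source of this signal was not tested. In mouse build GRCm38 (mm10), Mgp lies on chromosome 6 from 136872435 to 136875823.

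Pla1a had the largest gap in share of all members, 83.3% in cluster 8 against 29.6% in the other cells, a ratio of 2.77. It was nearly as frequent in cluster 7 (81.7%, ratio 2.5). The other clusters that list Pla1a list it lower, from 26% in cluster 1 to 3.2% in cluster 16, led by Apod. Cluster 15 held it in 4.7% of its cells. Clusters 7 and 8 thus held Pla1a in most of their cells, and 8 clusters were listed below the rest.

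Ccl8 was found in 80.3% of the cluster 8 cells against 50.5% of the other cells (ratio 2.64), and Ccl11, the eosinophil chemokine eotaxin, in 84.9% against 55% (ratio 2.39). Among the other clusters of the authors' deposited table, Ccl8 was listed higher in cluster 7 (78.6%, ratio 1.93) and cluster 1 (64.3%, ratio 1.38). Ccl11 was listed higher in cluster 3 (75.5%, ratio 1.72), cluster 7 (70%, ratio 1.45) and cluster 12 (92.8%, ratio 1.29). The mast cell-led cluster 15 held Ccl8 in 10.9% and Ccl11 in 20.3% of its cells. Ccl2, Ccl7, Ccl11, Ccl12 and Ccl8 lie in this order on chromosome 11 of GRCm38, with gene starts at 82035577, 82045712, 82057832, 82101845 and 82115185. Ccl2 and Ccl7, which attract monocytes, were not listed for cluster 8. Their recovered mean shares were 68.4% over the 3 clusters that do not list Ccl2 and 84.0% over the 6 that do not list Ccl7. Ccl2 and Ccl7 were listed lower in cluster 7 (1.59-fold and 1.3-fold), the cluster in which Ccl8 and Ccl11 were higher. Of the 6 CXC chemokines in the FGF2 table, 3 were listed for cluster 8. Cxcl12 (62.9% against 43.2%, ratio 1.35) and Cxcl14 (41.7% against 19.7%, ratio 1.31) were higher. Cxcl1 (14.9% against 26.2%) was 1.42-fold lower. The highest ratio of Cxcl12 was in cluster 4 (76.2%, ratio 1.64) and that of Cxcl14 in cluster 7 (53.5%, ratio 2.02).

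Promoter sequences were held for some of the leading genes and are shown for the chemokine gene Ccl8 and for Mmp10, Timp1 and Timp3, the matrix protease and inhibitors among the 11 genes with the largest ratios. Each run is the 250 bases before the gene start, 5′ to 3′ on the gene's strand, from RefSeq on GRCm38.p6. Capitals mark every match, on either strand, to the TATA box TATAAA, the AP-1 motif TGANTCA or the GC box GGGCGG, which appears as CCGCCC when read from the other strand.
Ccl8: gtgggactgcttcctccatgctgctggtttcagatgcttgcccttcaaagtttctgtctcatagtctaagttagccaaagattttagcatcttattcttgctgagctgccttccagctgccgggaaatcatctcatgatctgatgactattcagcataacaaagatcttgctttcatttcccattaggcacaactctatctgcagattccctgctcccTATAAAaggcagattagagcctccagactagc
Mmp10: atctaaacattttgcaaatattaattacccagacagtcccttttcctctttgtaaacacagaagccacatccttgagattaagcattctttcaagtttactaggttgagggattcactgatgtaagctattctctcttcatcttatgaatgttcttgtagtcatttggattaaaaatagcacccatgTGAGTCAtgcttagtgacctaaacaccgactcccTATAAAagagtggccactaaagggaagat
Timp1: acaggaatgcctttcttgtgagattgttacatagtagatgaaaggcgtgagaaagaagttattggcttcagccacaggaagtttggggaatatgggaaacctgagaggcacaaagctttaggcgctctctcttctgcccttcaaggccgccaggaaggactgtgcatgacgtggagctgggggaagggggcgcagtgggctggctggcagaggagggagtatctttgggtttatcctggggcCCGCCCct
Timp3: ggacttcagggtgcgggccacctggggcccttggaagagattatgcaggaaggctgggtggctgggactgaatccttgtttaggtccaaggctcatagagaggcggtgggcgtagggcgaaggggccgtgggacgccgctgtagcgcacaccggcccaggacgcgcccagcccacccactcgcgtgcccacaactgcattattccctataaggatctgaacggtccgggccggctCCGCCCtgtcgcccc
These lie at chr11:82114935-82115184, chr9:7502092-7502341, chrX:20869916-20870165 and chr10:86300162-86300411, all on the plus strand. The Ccl8 promoter held TATAAA, Mmp10 held TATAAA and TGANTCA, and Timp1 and Timp3 each held a GC box. Over all members with a promoter in the table, TATAAA was found in 17.1% of the 82 higher and 13.2% of the 53 lower ones, against 13.0% of the 27025 genes of the table. TGANTCA was found in 7.32%, 5.66% and 6.87%, and GGGCGG in 59.8%, 60.4% and 32.9%. The GC box thus had like shares in genes higher and lower in the cluster. The 27025 genes include genes not seen in these cells, so the gap to 32.9% is not read as particular to the members. A match is a description of the letters and not a site.

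Collagens formed the largest group among the higher genes. Of 13 fibrillar and associated collagens in the FGF2 table, 9 were listed for cluster 8, all higher, and 7 of these by at least 1.5-fold, with a median ratio of 1.76 over the 9. The same median over all 111 higher genes was 1.41. Col1a1 and Col1a2, the chains of type I collagen, had ratios of 2.15 (94.8% against 70.7%) and 2.03 (99.1% against 90.1%). For both, the highest ratio of any FGF2 cluster was in cluster 8. Col3a1, which forms fibrils together with type I, was found in 52.4% against 30.8% (ratio 1.87), but its ratio was higher in cluster 2 (a ratio of 2.0, in 47.6% of the cells). Col15a1, a collagen at the edge of basement membranes, was found in 75.3% against 35.8% (ratio 1.94). Col5a2, Col6a1 and Col6a2 were higher by at least 1.5-fold too, and Col6a3 and Col5a3 by less. The ratio of Col5a2 was larger in cluster 16 (2.44) and cluster 4 (1.84). Col5a3 was rare, at 38.7% against 12.2%, and listed in no other FGF2 cluster. Cluster 11, led by Chil1, Fxyd3 and the keratin gene Krt18, cluster 13, whose listed genes had a median share of 12%, and the mast cell-led cluster 15 held Col1a1 in 17.9%, 12.7% and 21.9% of their cells, at unknown depth.

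Elastic fibre, collagen processing and other matrix genes were listed too. Fbn1, the fibrillin of microfibrils, was found in 86.7% of the cluster 8 cells against 57.7% (ratio 1.89) and was listed higher in no other FGF2 cluster. Of 17 elastic fibre and crosslinking genes in the table, 8 were listed, all higher, with a median ratio of 1.34. Fbln2 reached 1.51, and Efemp2, Mfap5, Ltbp2, Mfap4, Emilin1 and Loxl2 had ratios of at most 1.36. Fbln2 (ratio 2.3) and Ltbp2 had their highest ratio in cluster 4, Mfap5 in cluster 3 and Mfap4 in cluster 5. Fbn1, Efemp2, Emilin1 and Loxl2 had theirs in cluster 8. Loxl2, a collagen crosslinking enzyme, was at 66.6% against 45.9%. Pcolce, which helps to cleave procollagen, was at 82.2% against 63.3%, and Serpinh1, the collagen chaperone, at 99.5% against 93.9%. Of the small leucine-rich proteoglycans, Lum was found in 83.7% against 68.1% (ratio 1.74) and Bgn in 100% against 96.4% (ratio 1.44). Lum had its highest ratio in cluster 2 and Bgn in cluster 8. Ccdc80 (ratio 1.85), Thbs2 (1.71) and Fn1 (1.35), further matrix proteins, were higher as well, Fn1 with its highest ratio in cluster 7 (1.46). Tnc, the matrix protein tenascin C, was 1.34-fold lower although found in 89.9% of the cluster 8 cells and 88.5% of the others.

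Basement membrane collagen IV was higher in cluster 8, Col4a1 with a ratio of 1.81 (91.1% against 69.4%) and Col4a2 with 1.55 (85.6% against 63%). These genes encode the chains of one heterotrimer and lie next to each other on chromosome 8 of GRCm38, where their annotated spans meet at 11312805 to 11312889. Sparc, a collagen-binding protein, had a ratio of 1.52. The other 9 of 12 basement membrane genes in the table were not listed for cluster 8. Col4a1 was also higher in cluster 7 (91.8%, ratio 1.54) and in cluster 11 (58.1%, ratio 1.81).

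Protease inhibitors were higher together with some proteases. All 5 of the 17 tabulated matrix proteases and inhibitors that were listed for cluster 8 were higher. Timp1, an inhibitor of metalloproteinases, was found in 99.5% against 92.2% (ratio 2.23), and its ratio was larger in cluster 7 (3.47). Timp3, an inhibitor that binds to the matrix, was found in 70.7% against 43.8% (ratio 2.14), and the 1 other cluster listed higher was cluster 7 (65.9%, ratio 1.39). Mmp10, stromelysin 2, was found in 40.7% against 25% (ratio 1.87), more than in clusters 3 (33.5%) and 0 (37.3%), which also list it higher. Mmp2, a gelatinase, had a ratio of 1.38 and Plat, tissue plasminogen activator, 1.39 (59.9% against 29.5%). Ctsk, the lysosomal collagenase cathepsin K, was found in 83.3% against 54.6% (ratio 1.77) and was listed higher in no other FGF2 cluster.

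Of the 9 receptors of the PDGF, FGF and IL-1 families in the table, Pdgfrb was higher, Il1rl1 lower, and the others were not listed for cluster 8. Ednra, a receptor of endothelins, was found in 55.1% of the cluster 8 cells and 16.9% of the others (ratio 1.57) and was listed for no other FGF2 cluster. Ednrb, the second endothelin receptor, was 1.3-fold lower (34.1% against 41.1%) and was highest in cluster 5 (77.2%, ratio 2.63). Pdgfrb, the platelet-derived growth factor receptor of perivascular and stromal cells, was found in 86.5% against 55.9% (ratio 1.8), with cluster 7 next (83%, ratio 1.42). Nrp1, a coreceptor of semaphorins and VEGF, was at 59% against 37.6%, and Unc5b, a netrin receptor, at 67% against 46%. Il33, an alarmin cytokine, was found in 59.3% against 40.7% (ratio 1.43), whereas its receptor gene Il1rl1 was 1.52-fold lower (41.6% against 48.8%). Cluster 3 listed both of these higher, Il33 with a ratio of 3.28 and Il1rl1 with 1.56.

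Complement and interferon genes gave a few members. Serping1, the C1 inhibitor, had a ratio of 1.44 and Masp1, a protease of the lectin pathway, was 1.35-fold lower. Isg15, an interferon-induced ubiquitin-like protein, was found in 65% against 43.9% (ratio 1.86). Irf7, a transcription factor of the interferon response, was at 50.3% against 27% and Ifi44 at 41% against 25%. These were 2 of the 5 interferon response genes of the list in the table, since Ifi44 belonged to no list. None of the 5 antigen presentation genes was listed for cluster 8.

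Among the lower genes, Igfbp5 and Cd24a led. Igfbp5, a binding protein of insulin-like growth factors, was 2.62-fold lower in cluster 8 (36.8% against 44.5%). It was higher in clusters 7 (92.2%, ratio 6.49), 5 (86.6%, ratio 4.47) and 11 (70.1%, ratio 2.02), and 10 other clusters listed it lower, so cluster 8 shared its low level with most of the library. Cd24a, a surface glycoprotein of immature cells, was 2.09-fold lower (29.7% against 59.9%), the largest drop in share, and its log ratio was the lowest of any FGF2 cluster. Cluster 5 held it in 91.4% of its cells. Lcn2, the iron-binding protein lipocalin 2, was 1.98-fold lower (31.1% against 44.7%), and Odc1, the first enzyme of polyamine synthesis, 1.9-fold (75% against 79.1%). Cluster 1 listed Odc1 higher.

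Signalling lists had few listed members. Of 12 paracrine growth factors, 12 BMP genes and 8 Wnt modulators in the table, 1 each was listed, all lower. Fgf7, a growth factor for epithelium, was 1.55-fold lower (72.3% against 78.9%), Id1, a target of BMP signalling, 1.63-fold (63.8% against 74.6%) and Dkk2, a Wnt modulator, 1.54-fold (16.2% against 28.8%). Of the 13 TGF-beta genes, Ltbp2, Pmepa1 (ratio 1.38) and Inhba (87.9% against 73.1%, ratio 1.36), an activin chain, were higher and Ccn1 was lower. Inhbb, another activin chain and in no list, was higher (72.6% against 55.1%, ratio 1.32). None of the 11 FGF and ERK feedback and target genes and none of the 4 EGF receptor ligands in the table was listed for cluster 8. Actb and Actg1, the cytoplasmic actins, were 1.55-fold and 1.56-fold lower although they were found in 99.6% and 97.2% of the cluster 8 cells. Tmsb4x, which binds actin monomers, and Dstn, which severs filaments, were 1.53-fold and 1.49-fold lower. Acta2, the actin of myofibroblasts, was not listed for cluster 8. Its recovered mean share over the 7 clusters that do not list it was 38.7%.

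**Figure D2:**
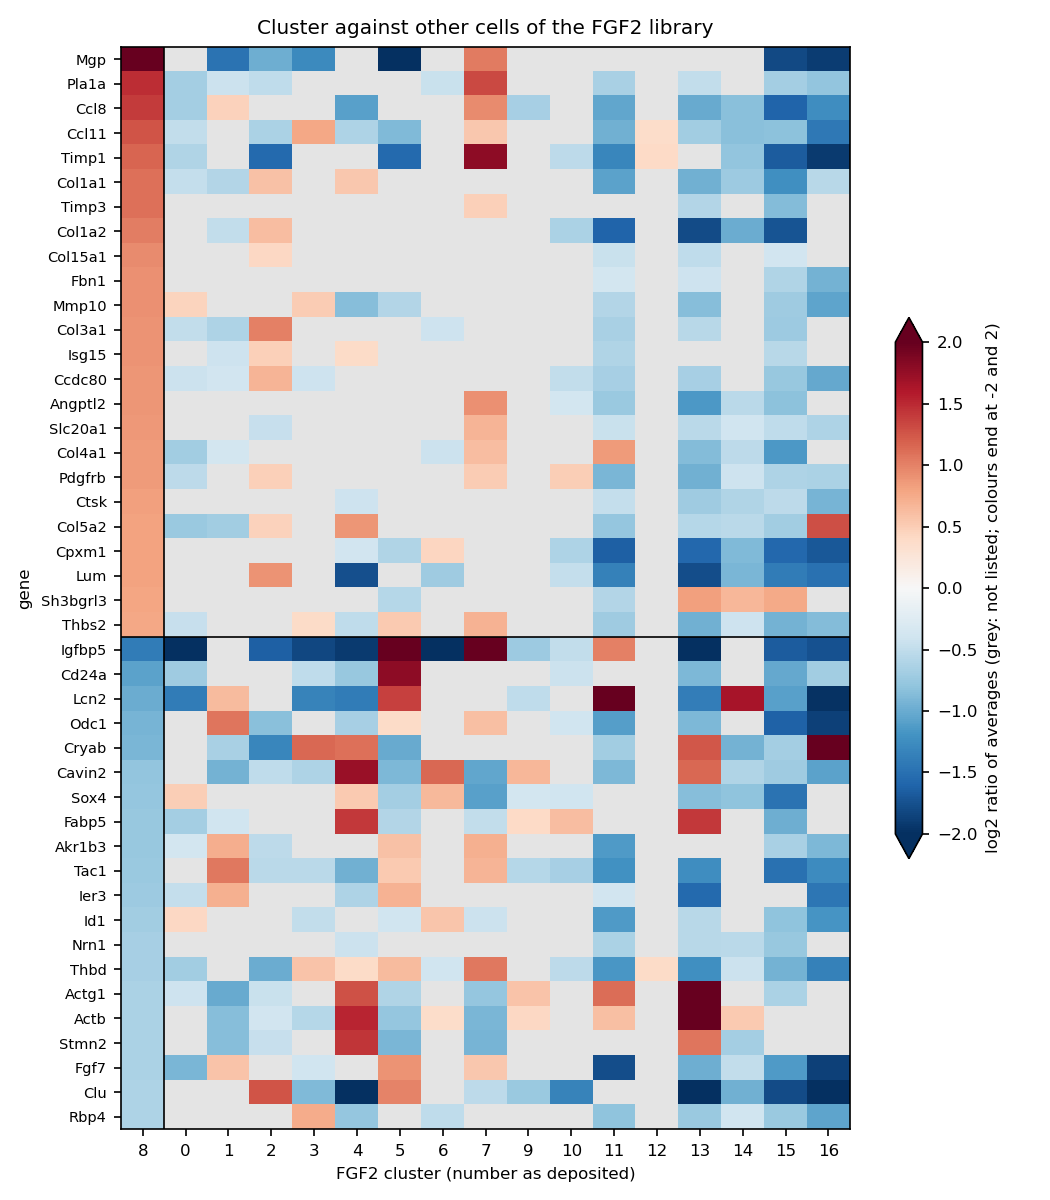
Log2 ratio of averages of each FGF2 cluster (columns, cluster 8 first) against all other FGF2 cells for 24 of the 25 genes with the largest and the 20 with the smallest ratio in cluster 8 (rows, above and below the line); grey cells are not listed. Column 7 is coloured like column 8 for Mgp, Pla1a, Ccl8 and Timp1 and opposite to it for Igfbp5.

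The same 185 genes were followed through the other 16 FGF2 clusters. These comparisons share cells, because each cluster is part of the other cells of every other cluster, so their values stand side by side and their likeness is not a result. A member was listed in a median of 6 other clusters. For 62 of the 111 higher genes the highest log ratio of the library was in cluster 8, for 10 in cluster 7, for 7 in cluster 4 and for 6 in cluster 2. The 111 genes are members because they were high in cluster 8, which bears on this count and the next ones. No like count was made for the own genes of other clusters, so nothing is read from these counts. For 30 higher genes cluster 8 was the 1 cluster that listed them higher, 10 of them by at least 1.5-fold, among them Fbn1, Ctsk, Tmod3, Ctsb, Ednra, Ybx3, Creg1, Col6a2 and Capg. No other cluster listed 9 genes at all, namely Tmod3, Ednra, Ybx3, Shc4, Col5a3, Irf7, Aopep, Rnd3 and Ch25h. An unlisted gene may still be expressed there. Of the 74 lower genes, 3 had their lowest log ratio in cluster 8 (Cd24a, Ldhb and Dstn), these being named after their values were seen.

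Cluster 7, led by Igfbp5, Il11 and Slpi, listed 32 of the 111 higher genes as higher (28.8%, where 5.79% of the 3058 genes of the table were so listed) and 3 as lower. It also listed 29 of the 74 lower genes as lower, where 4.32% were, and 14 as higher. Cluster 2, led by Igfbp3, Lpl and Clu, listed 22 of the higher genes as higher (19.8%, where 4.12% of the table were) and 15 as lower, where 3.47% were. It listed 26 of the 74 lower genes as lower and 4 as higher. Cluster 1 listed 3 of the higher genes as higher and 15 as lower, where 2.26% of the table were lower, and 19 of the 74 lower genes as higher (25.7%, where 2.45% were) and 13 as lower. Cluster 6 listed 2 as higher and 12 as lower, where 1.44% were lower, and 17 of the lower genes as higher (23%, where 1.86% were) and 5 as lower. The mast cell-led cluster 15 and cluster 11 listed 74 and 70 of the 111 higher genes as lower, and 4 each as higher, where 5.98% and 8.14% of the table were listed as higher. They listed 52 and 41 of the 74 lower genes as lower too, where 33.5% and 16.5% of the table were listed as lower.

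**Figure D3:**
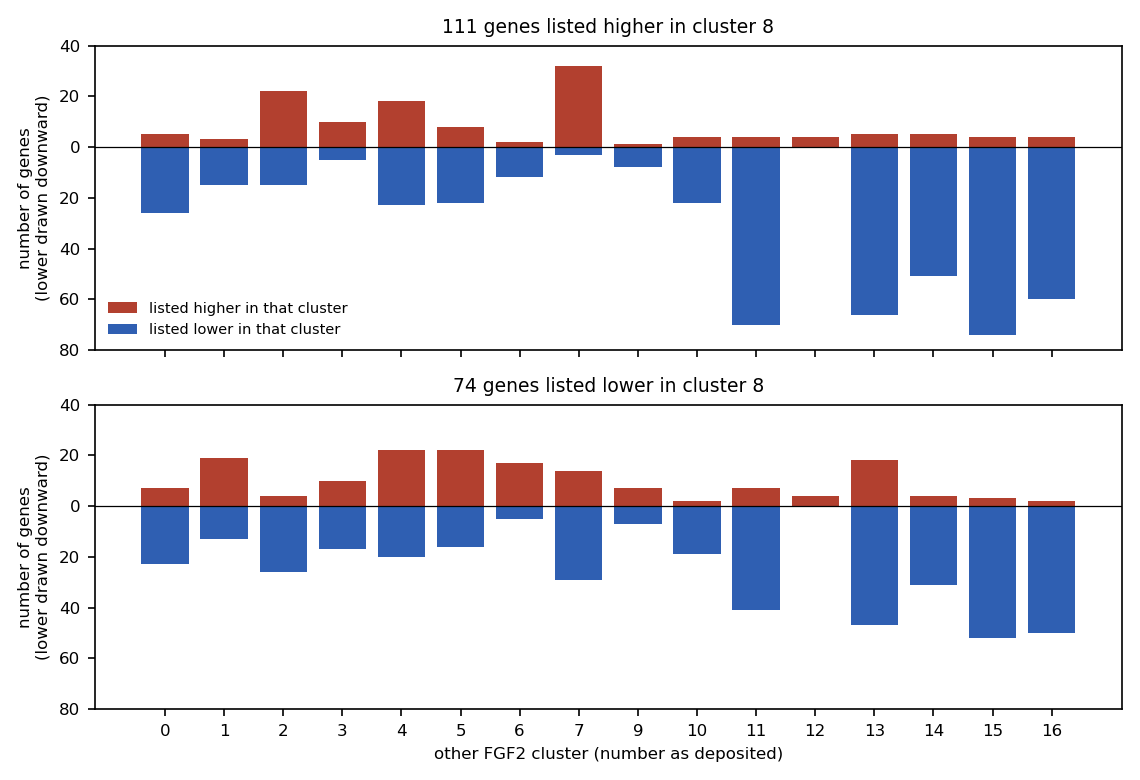
Number of the 111 genes higher in FGF2 cluster 8 (top) and of the 74 lower ones (bottom) that each other FGF2 cluster lists as higher (upward bars) or lower (downward bars). Cluster 7 lists 32 of the higher genes as higher and 3 as lower; clusters 11 and 15 list 70 and 74 of them as lower.

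Of the 185 genes, 163 were also listed in the control table, 99 of the higher and 64 of the lower ones. The control library shares no cells with the FGF2 library. Control cluster 6, led by Mgp, Pmepa1 and Timp1 and 7.16% of the control cells, listed 72 of the genes, 63 of them (87.5%) in the same direction. It listed 42 of the 99 higher genes as higher (42.4%, where 4.99% of the 2323 genes of both tables were so listed), 7 as lower, and 21 of the 64 lower genes as lower (32.8%, where 5.6% were). The 42 genes are 37.8% of the 111 genes higher in FGF2 cluster 8 and 29.4% of the 143 higher in control cluster 6. Control cluster 1, led by Crabp1, Mmp3 and Cpxm1, listed 64 of the genes, 49 in the same direction (76.6%). It listed 31 of the 99 higher genes as higher (31.3%, where 8.74% were) and 18 of the 64 lower genes as lower (28.1%, where 6.93% were). The 2323 genes were not matched to the members, which were listed in a median of 6 other FGF2 clusters. Control cluster 12 listed 24.2% of the higher and 32.8% of the lower members as higher. The gaps to the shares of the 2323 genes are therefore not read as a likeness of clusters. Spearman's rho of the log ratios was 0.59 over the 72 genes of control cluster 6 and 0.61 over the 64 of control cluster 1. It is a description across genes, which are not replicates. With unlisted genes set to 0 it was 0.25 and 0.14. All 15 control clusters were compared to find those most like FGF2 cluster 8, and these had the largest rho, so the values are selected ones. Control clusters 2 and 12 came next, with rho of 0.19 and 0.03 and 60.3% and 52% in the same direction. The other control clusters had negative values.

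Of the higher members, 7 were listed higher in both of these control clusters, 35 in control cluster 6 and not in control cluster 1, and 24 in control cluster 1 and not in control cluster 6. Of the lower members, 12 were listed lower in both, among them Actb, Dstn, Fgf7 and Id1. How many of the 2323 genes of both tables were listed in both or in 1 of these control clusters was not counted. Nothing is therefore read from these overlaps. Control cluster 6 listed Mgp in 67.1% of its cells (ratio 6.88), Timp1 (ratio 2.63), Timp3 (77.4%, ratio 2.37), Slc20a1 (73.3%, ratio 2.31), Fbn1 (ratio 1.73), Col4a1 (ratio 1.58) and Col1a1 (ratio 1.5). It did not list Pla1a or Ccl8. Control cluster 1 listed Ccl8 in 47.6% of its cells (ratio 2.46), Pla1a in 44.3% (ratio 1.37), Lum (ratio 3.13) and Cpxm1 (ratio 3.99), did not list Mgp, and listed Timp1 as 1.35-fold lower. Col15a1 was listed higher in both, with ratios of 2.02 and 2.17, as were Ctsk (1.44 and 2.27), Spp1 (2.31 and 1.52), Col6a1 (1.29 and 1.4) and Plat (1.46 and 1.56). Ccl11 was listed higher in control cluster 12 alone (26.8%, ratio 2.29). Among the 9 genes that went opposite ways in control cluster 6 were Lpl, Cxcl12, Serping1 and Tnc. Lpl, lipoprotein lipase, was 2.24-fold lower there and 1.54-fold higher in FGF2 cluster 8.

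**Figure D4:**
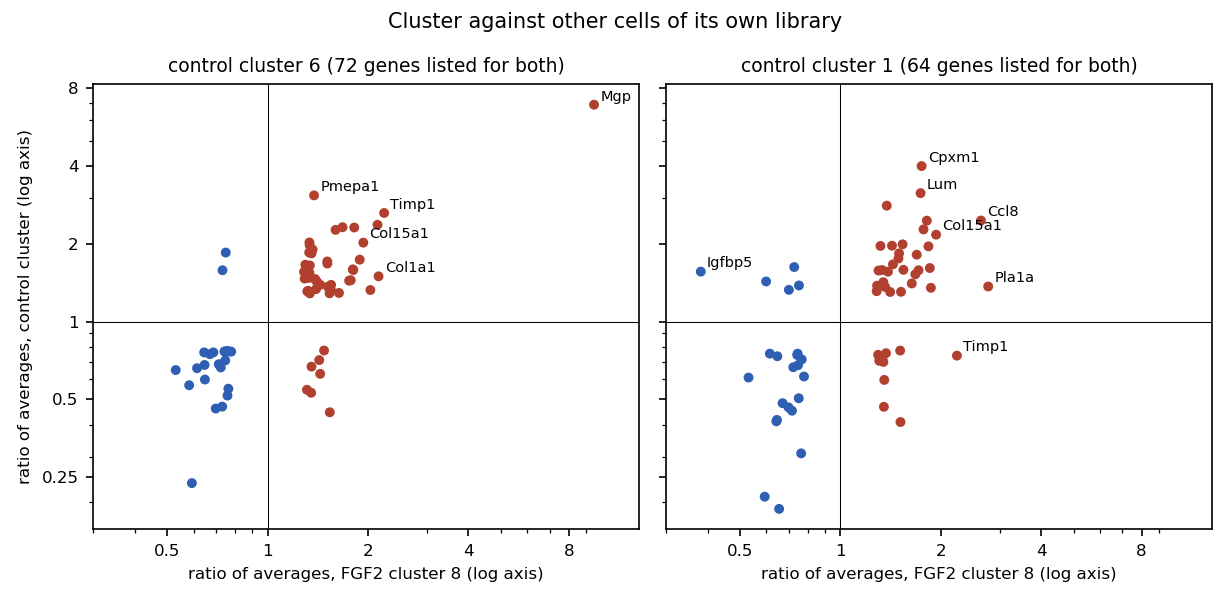
Ratio of averages in FGF2 cluster 8 (horizontal, log axis) against that in control cluster 6 (left) and control cluster 1 (right) for the genes listed for both, each against the other cells of its own library (red higher, blue lower in FGF2 cluster 8). Mgp lies far out on both axes on the left, at 9.52 and 6.88; Timp1 is above 1 on the left and below 1 on the right.

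The members were also set against the whole libraries, by the recovered share of all cells with a value. Of the 64 genes lower in cluster 8, 21 had a share at least 1.5-fold larger in the FGF2 library than in the control library (32.8%, where 7.53% of the 2323 genes of both tables did) and 1 a smaller one. The listing itself bears on these counts, since a gene listed as lower had to be frequent in the other FGF2 cells, where the smallest share was 26.2%, and the background genes had no such condition, so nothing is read from them. Of the 99 higher genes, 10 had a share at least 1.5-fold larger in the FGF2 library and 15 a smaller one (10.1% and 15.2%, where 7.53% and 15.1% did). Il1rl1 was found in 48.4% of the FGF2 cells and 2.9% of the control cells, Cd34 in 35.6% and 2.37%, Cd24a in 58.3% and 8.46%, and Lcn2 in 43.9% and 8.79%, all lower in cluster 8. Fabp5, a fatty acid-binding protein, was the 1 lower member with a smaller share, 51.8% against 87.4%. Some matrix genes higher in cluster 8 were among those of smaller share in the FGF2 library. Col3a1 was found in 32.0% of the FGF2 cells and 92.4% of the control cells, Col6a2 in 37.5% and 78.0%, Loxl2 in 47.0% and 81.6%, and Col5a3 in 13.7% and 29.7%. Of the 99 higher genes, 46 had a larger share in the FGF2 library, matrix genes such as Lum (69.0% and 51.1%) and Timp1 (92.6% and 82.3%) among them. The share of Col3a1 in cluster 8, 52.4%, was above that of its library and below that of the control library. Mgp went the other way, at 58.7% of the FGF2 and 29.8% of the control cells, as did Ccl8 (52.1% and 24.4%) and Ccl11 (56.7% and 12%). Pla1a was at 32.6% and 29.8%. Depth per cell is unknown in both libraries and its part in these differences was not tested.

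**Figure D5:**
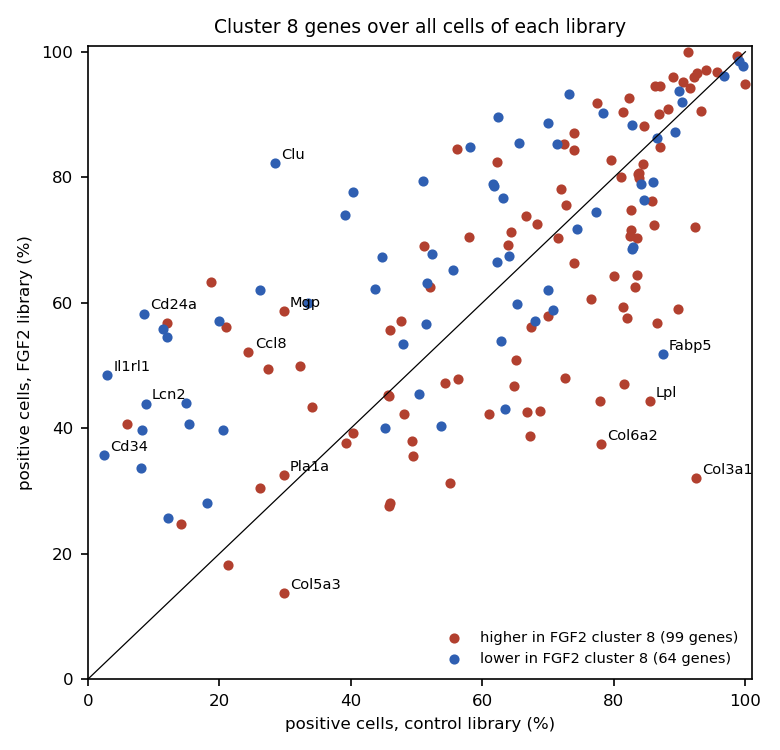
Recovered percentage of all control cells (horizontal) and of all FGF2 cells (vertical) with a value, for the 163 genes of FGF2 cluster 8 listed in both tables; the line marks equal shares. Il1rl1, Cd34 and Cd24a, lower in cluster 8 (blue), lie above the line, and Col3a1 lies far below it at 92.4% and 32.0%. The listing favours lower genes that are frequent in the FGF2 cells, so nothing is read from where the blue points lie.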

How the data were processed

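Single-cell RNA of 1 control and 1 FGF2 library was measured on the 10x Chromium system. Cell Ranger 4.0 and build mm10 are named in the submitters' processing notes. How cells were filtered, doublets treated, values normalized, clusters formed and tests run is not given in the sources used here. Each library's table holds, per the file headers, for each cluster against the other cells, the natural log ratio of averages deposited by the authors, the fractions of positive cells deposited by the authors (printed as percentages), and p-values of the authors, which rest on cells and are not used as results. The integrated table was not used here. The natural log was taken as base, because genes with no positive cell in several clusters then gave the most even averages (median coefficient of variation 0.0030% against 0.0334% with base 2, 5 FGF2 genes). Ratios are the exponential of the log ratio. The offset of 1 in each average was assumed, also in comparing the bases.

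The authors' p-value was below 0.01 in every entry, no log ratio was closer to 0 than 0.25, and the larger of both shares never fell under 25.1%. The share over all cells equals the other-cell share plus the cluster's part times the difference of both shares; least squares over the 1490 FGF2 genes listed in at least 2 clusters (2077 in the control) gave the parts, from which shares over all cells and mean shares over clusters not listing a gene were recovered (at least 10% of cells). These steps were run on simulated shares built from the same relation and the recovered parts, which checks the computation alone. The largest error in a mean share over clusters not listing a gene was 0.113 points for FGF2 and 0.138 for the control. For shares of whole libraries, 0.1 percentage points were added before division. Python 3.11.15, numpy 2.4.6, pandas 2.3.3, scipy 1.17.1 and matplotlib 3.10.9 were used.

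The members and the gene lists were chosen with earlier results of these data known. Named genes are Mgp, Pla1a and Ccl8, the 25 largest and 20 smallest ratios, the 10 largest gaps in share each way, list members, and genes at least 1.5-fold higher whose highest ratio lies in cluster 8; others named here (among them Ifi44, Tnc, Dstn, Tmsb4x, Pcolce, Serpinh1, Fn1, Nrp1, Unc5b, Ednrb, Shc4, Aopep, Rnd3, Ch25h and Ldhb) were chosen after their values were seen. Alternatives changed the fold, the log base, the measure, the share filter, the least squares and the correlation. Precision is limited by the unknown depth. 1 member is not reported here by name.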

Additional observations from a re-analysis of the deposited data

How the results depend on the processing

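No paired analysis was possible because each group had 1 library. The counts of genes moved with the fold that counts as changed: against 43 higher and 24 lower genes at 1.5-fold, there were 8 and 2 at 2-fold and 104 and 67 at 1.3-fold. With the log ratio read as base 2, 19 and 5 remained past 1.5-fold. By the ratio of shares 38 genes were higher and 11 lower, and with a larger share of at least 50% 42 and 18. Of the genes of the function lists, 26 were higher and 10 lower at 1.5-fold, 8 and 1 at 2-fold, and 50 and 24 when any listed gene was counted. The part of cluster 8 was 5.55% with genes listed in at least 4 clusters and 5.56% with parts forced to sum to 1. The higher genes with their highest value in cluster 8 numbered 62 by log ratio, 58 by share and 68 without the 3 clusters of median listed share under 20%. The correlation with control cluster 6 was 0.74 by Pearson's r and 0.25 when unlisted genes were set to 0. That with control cluster 1 was 0.58 and 0.14. The cause of these moves was not tested. Cells per cluster and counts per cell are unknown, and genes near even are not listed.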

Other observations

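Of the 185 genes of FGF2 cluster 8, 106 belonged to none of the lists. The genes named here were picked after their values were seen and stand for no group. In the authors' deposited table the protease gene Ctsb was found in 99.6% of the cluster 8 cells against 94.3% of the other cells (ratio 1.69) and Creg1, a secreted and lysosomal glycoprotein, in 88.3% against 69.3% (ratio 1.54). Mitf, a transcription factor of the MiT family, was found in 77.1% against 48.4% (ratio 1.52). Among transporter genes, Slc29a1, which carries nucleosides, was at 62.2% against 27.6% (ratio 1.65) and Slc20a1, which carries phosphate, at 67.1% against 42% (ratio 1.82), while Slc14a1, which carries urea, was 1.37-fold lower (47.6% against 60.1%). Spp1, the gene of osteopontin, had a ratio of 1.68 although it was listed at 100% of the cells in cluster 8 and in all other cells, those of the mast cell-led cluster 15 included, at unknown depth.

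Of the 2 neuron markers in the table, Stmn2 was listed for cluster 8. Further genes known from nervous tissue were listed in either direction. Nrn1, which promotes neurite growth, was found in 36.2% against 55.5% (1.59-fold lower), Nsg1, a neuronal endosomal protein, in 36.8% against 57.8% (1.31-fold lower), Tac1, the precursor of substance P, in 49.4% against 56.2% (1.67-fold lower) and Stmn2, which binds tubulin, in 18.1% against 28.6% (1.55-fold lower). Nes, an intermediate filament gene of neural progenitors and other cells, was higher (56.3% against 38.3%, ratio 1.3). Rbp4, a carrier of retinol, was 1.54-fold lower (38.9% against 57.9%), and Acot1, an acyl-CoA thioesterase, 1.33-fold lower (19% against 41%).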
